A study of Gasterosteus aculeatus with 79 samples.

Results

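Paternal care in the threespine stickleback was followed in RNA from 2 brain regions, and 99 genes that stood higher in the diencephalon of caring males at every stage of care are described here. The genes were chosen by their diencephalon levels, as counts per 1000000 reads on genes (CPM). Of 22456 genes with a row, 14278 had a mean of 5 CPM or more in diencephalon. For each of them the mean log2(CPM + 1) of every caring group was set against that of the control males sampled at the same hour, and the genes were ranked by the smallest of the 5 differences. All 5 differences were above 0 in 2417 genes. The first 100 were taken, and MYH3, a myosin heavy chain of muscle, was left out, which gave 99. The rank rests on diencephalon, so diencephalon values are given as a description, with no test, and tests were run in telencephalon.

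Adult males from a freshwater population were sampled in 8 groups of 5. The control males (NOCLUTCH) were mature and held no nest. They were taken in the morning (9 a.m.), early afternoon (1 p.m.) and late afternoon (5 p.m.). Nest males (NEST, 9 a.m.) had built a nest and had not mated, and egg males (EGGS, 9 a.m.) were taken 4 days after fertilization. Early, mid and late hatching males (HATCHED, 9 a.m., 1 p.m. and 5 p.m.) were taken on day 5. The 40 males gave 39 diencephalon and 40 telencephalon libraries, since a single 1 p.m. control lacked a library of the former. The telencephalon libraries therefore came from the same males that chose the genes, and they are not a second set of animals. Nest, egg and early hatching males also shared 1 control group.

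In this fish the father alone guards the nest, fans the eggs and retrieves fry. The diencephalon holds the hypothalamus and the preoptic area, which steer hormone release, feeding and reproductive behavior, and the telencephalon holds pallial and subpallial areas used in social recognition and learning. The tables used here gave a symbol for 681 of the genes with a row and for only 6 of the 99, and the other members are given by their Ensembl identifiers. The 6 were ndufa7, an accessory subunit of complex I of the mitochondrial respiratory chain, TAPBP (2 of 7), a tapasin that helps to load peptides onto class I MHC molecules in mammals, CCRN4L (1 of 2), the nocturnin gene, whose mouse counterpart cycles with the clock, aebp1, a protein of the extracellular matrix in mammals, klhdc8a, a kelch domain protein, and si:busm1-57f23.1, whose function is not known here. Of 30 gene lists matched by symbol, 19 held at least 1 identifier, and only the respiratory chain list held a member (ndufa7, 1 of its 2 identifiers). The symbols came only from the study's own lists of differentially expressed genes and of orthogroups shared with mouse. Members without a symbol could match no list, so the matches do not describe the 99 genes.

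Libraries held between 15839679 and 37371744 counts on genes. All 29 control libraries had been sequenced over multiple lanes, against 2 of 50 caring libraries, both from late hatching male 65, and only 1 of 10 first index sequences, that of male 65, was found in both caring and control libraries. Care and sequencing layout therefore cannot be told apart except through male 65. RNA of neighbouring tissue also differed between telencephalon groups. Summed CPM of 7 pituitary hormone genes ranged from 5.58 to 18641 in the 9 a.m. controls and from 2.29 to 9191 in the 1 p.m. controls, and in caring groups the highest library reached 409. The sum over 22 photoreceptor genes reached 749 and 640 in those 2 control groups and 162 in caring males. In the 5 p.m. controls the pituitary sum ran from 0.97 to 26.4 CPM and the photoreceptor sum reached 26.0 CPM. In diencephalon the pituitary sum reached 4877 CPM in controls and 3699 CPM in caring males, and the photoreceptor sum 146 and 722 CPM. The share of aligned reads outside genes averaged 40.8% to 42.7% in telencephalon control groups and 41.9% to 42.9% in caring groups, and 39.4% to 43.0% against 43.9% to 45.7% in diencephalon. Fewer cells of a type and less RNA per cell cannot be told apart in such tissue samples.

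The 99 genes stood only moderately above the controls in diencephalon. The smallest of the 5 differences ran from 0.60 on the log2 scale in ENSGACG00000005338 down to 0.21. The median difference over the genes was 0.39 at the nest stage, 0.37 with eggs, 0.31 at early hatching, 0.36 at mid hatching and 0.38 at late hatching. The smallest difference fell at early hatching in 29 genes, at mid hatching in 28, at late hatching in 16, at the nest stage in 14 and with eggs in 12. The largest single differences were those of ENSGACG00000016857, at 1.89 at mid hatching and 1.61 at early hatching, and of ENSGACG00000016042, at 1.47 at the nest stage. At the limit of the choice the members ENSGACG00000004390, ENSGACG00000010895 and ENSGACG00000004917 had smallest differences of 0.2126, 0.2123 and 0.2119, and the next genes, ENSGACG00000005058, ENSGACG00000011629 and ENSGACG00000002243, had 0.2109, 0.2101 and 0.2100.

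**Figure D1:**
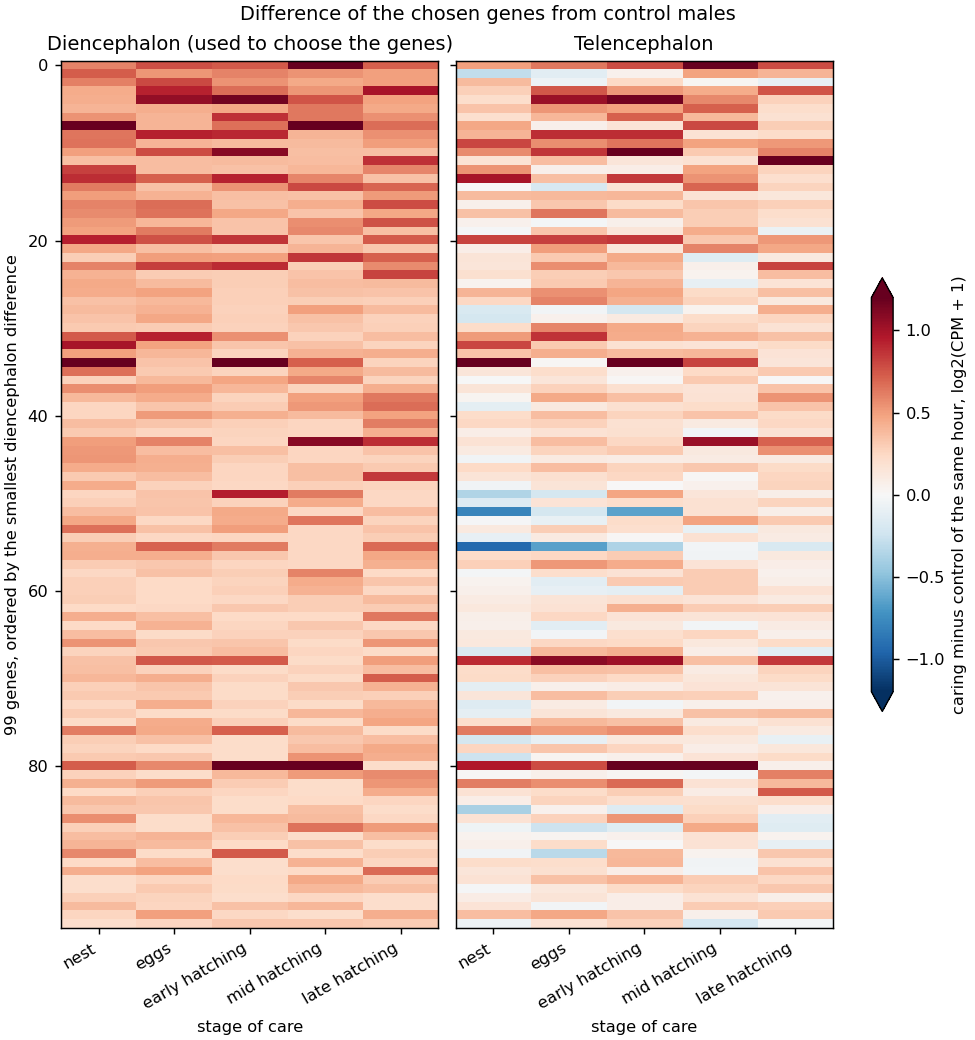
Difference of each of the 99 genes (rows, ordered by the smallest diencephalon difference) from the control males of the same hour at each of 5 stages (columns), in log2(CPM + 1), in the diencephalon, which chose the genes, and in the telencephalon of the same males. Every diencephalon cell is above 0. Many telencephalon cells are paler and some are below 0, while some genes, such as ENSGACG00000009188, are darker in telencephalon.

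The genes ranged in mean level from 5.01 CPM in diencephalon (ENSGACG00000010895) to 725.8 CPM (ENSGACG00000007324), with a median of 19.1 CPM. Caring and control libraries overlapped in every member in both regions, as they did in all 14278 genes of at least 5 CPM (0% with every caring library above every control, and 0% with every one below). In diencephalon the largest number of the 25 caring libraries that lay above all 14 controls was 21. ndufa7 was one of the genes with that number. Its control libraries held between 28.2 and 36.3 CPM with a median of 29.4, and its caring libraries between 31.4 and 52.9 CPM with a median of 44.1. ENSGACG00000000639 ran from 9.65 to 12.7 CPM in controls and from 11.8 to 19.5 in caring males. ENSGACG00000010100, second in rank, ran from 43.2 to 88.9 CPM in controls (median 64.6) and from 64.5 to 140.3 in caring males (median 91.5). The leading gene, ENSGACG00000005338, overlapped far more: its controls ran from 0.53 to 32.8 CPM with a median of 16.1, and its caring males from 4.83 to 45.4 with a median of 19.97.

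The genes with symbols stood at various places in the ranking. TAPBP (2 of 7), at rank 4, had diencephalon differences between 0.44 at the nest stage and 0.99 at late hatching on the log2 scale, with caring libraries between 3.79 and 17.6 CPM (median 10.3) and controls between 0.33 and 12.1 CPM (median 6.91). klhdc8a had differences between 0.35 and 0.66, with medians of 36.7 CPM in caring and 26.7 CPM in control males. The differences were 0.25 to 0.45 for si:busm1-57f23.1, 0.23 to 0.37 for CCRN4L (1 of 2), 0.22 to 0.57 for aebp1 and 0.22 to 0.53 for ndufa7.

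In telencephalon, which did not enter the choice, 5 of the 99 genes were higher in caring than control males in the mean of the 5 stages at an adjusted p under 0.01, by edgeR's quasi-likelihood test with Benjamini-Hochberg adjustment over 18397 genes. Of all genes tested 0.245% were called higher. No member was called lower, where 0.364% of all genes were. At an unadjusted p under 0.05 the members numbered 44 higher and 2 lower, and of all genes 8.74% were higher and 9.74% lower. At an adjusted p under 0.05 the higher members were 14, beside 1.3% of all genes. DESeq2 and edgeR's likelihood ratio test each called 12 members higher at an adjusted p under 0.01, beside 0.696% and 0.467% of all genes. The median change of the members was 0.22 on the log2 scale and 94 of 99 lay above 0. Over all genes the median was -0.01 and 47.8% lay above 0. The genes were chosen in diencephalon of the same males, whose deviations are correlated between the regions (median r 0.57 over the 99), so these shares over all genes are not what the members would show without a change in telencephalon.

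ndufa7 had the lowest p. At 9 a.m. its control telencephalon libraries held 18.6, 18.8, 21.6, 21.6 and 22.2 CPM, nest males 28.2, 28.4, 32.7, 33.9 and 37.0, egg males 25.2, 26.1, 29.4, 34.0 and 40.5, and early hatching males 29.5, 29.7, 31.4, 38.1 and 39.6. All 15 caring males of that hour were above all 5 controls. The share of all genes that separate in this way was not counted, and the nest, egg and early hatching males share these 5 controls. Only 1 of these controls held neither over 1000 CPM of pituitary nor over 100 CPM of photoreceptor genes. The same held for 4 of 5 egg males and all nest and early hatching males. At 1 p.m. the controls held 19.3, 19.7, 24.2, 24.7 and 27.6 CPM and mid hatching males 23.7, 24.8, 26.0, 26.8 and 29.2, so these groups overlapped. At 5 p.m. the controls held 20.5, 21.0, 21.3, 21.5 and 25.2 CPM and late hatching males 20.4, 29.3, 30.5, 31.2 and 35.1. The mean change was 0.51 on the log2 scale (SE 0.08, adjusted p = 0.000607 by edgeR's quasi-likelihood test), with 0.65, 0.60, 0.72, 0.16 and 0.44 from the nest stage to late hatching.

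The late hatching male with 20.4 CPM of ndufa7 was male 65, whose libraries were on multiple lanes like those of the controls. It was the lowest of all 25 caring males in telencephalon and lay under every 5 p.m. control. In diencephalon it held 31.5 CPM, beside 28.2 to 31.0 CPM in the controls of that hour and 40.8 to 50.3 CPM in the other late males. ENSGACG00000000639 also stood under the control range of that hour in male 65 in telencephalon, at 9.56 CPM against 10.6 to 12.3 CPM in controls and 12.3 to 14.4 CPM in the other late males. ENSGACG00000000176 lay within the controls, at 111.3 CPM against 107.3 to 129.7 CPM, as did ENSGACG00000020201, at 40.6 CPM against 14.7 to 46.9 CPM, and ENSGACG00000003098, at 67.9 CPM against 56.6 to 68.9 CPM. The other late males also reached into the control range in these 3 genes, with 107.6 to 166.4, 30.0 to 49.7 and 65.3 to 86.9 CPM in that order. In diencephalon, which chose the genes, male 65 lay above all 5 p.m. controls in each of the 4, at 13.0 CPM of ENSGACG00000000639 against at most 12.7, 105.3 CPM of ENSGACG00000000176 against at most 91.3, 5.42 CPM of ENSGACG00000020201 against at most 4.92 and 62.9 CPM of ENSGACG00000003098 against at most 57.8. Over the 99 genes the median difference of male 65 from the 5 p.m. controls in telencephalon was 0.23, with 0.08 to 0.37 in the other late males. The part of the sequencing layout in the calls was not tested beyond these values.

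The other 4 called genes have no symbol here. ENSGACG00000000176 was 0.36 higher on the log2 scale (SE 0.07, adjusted p = 0.00372, edgeR quasi-likelihood), with telencephalon levels between 85.4 and 129.7 CPM in 15 controls (median 110.01) and between 107.6 and 184.4 CPM in 25 caring males (median 147.4). In ENSGACG00000000639 the change was 0.37 (SE 0.07, adjusted p = 0.0044), with the controls between 8.10 and 12.3 CPM and 15 of the 25 caring males above all of them. ENSGACG00000020201 showed the largest change of the 5, 0.62 (SE 0.13, adjusted p = 0.00716), and its controls reached 46.9 CPM, so that 5 of 25 caring males exceeded all of them. The change of ENSGACG00000003098 was 0.31 (SE 0.07, adjusted p = 0.00788), with 46.0 to 104.2 CPM in caring males and 48.4 to 69.9 CPM in controls. All 5 genes had a positive estimate at each of the 5 stages. Next in order came ENSGACG00000005390, ENSGACG00000003861, ENSGACG00000010627, ENSGACG00000017866 and ENSGACG00000019639, with changes of 0.24, 0.43, 0.42, 0.35 and 0.33 and adjusted p from 0.0102 to 0.0134, followed by ENSGACG00000000782 and klhdc8a, with changes of 0.30 and 0.37 and adjusted p of 0.0209 and 0.0239.

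**Figure D2:**
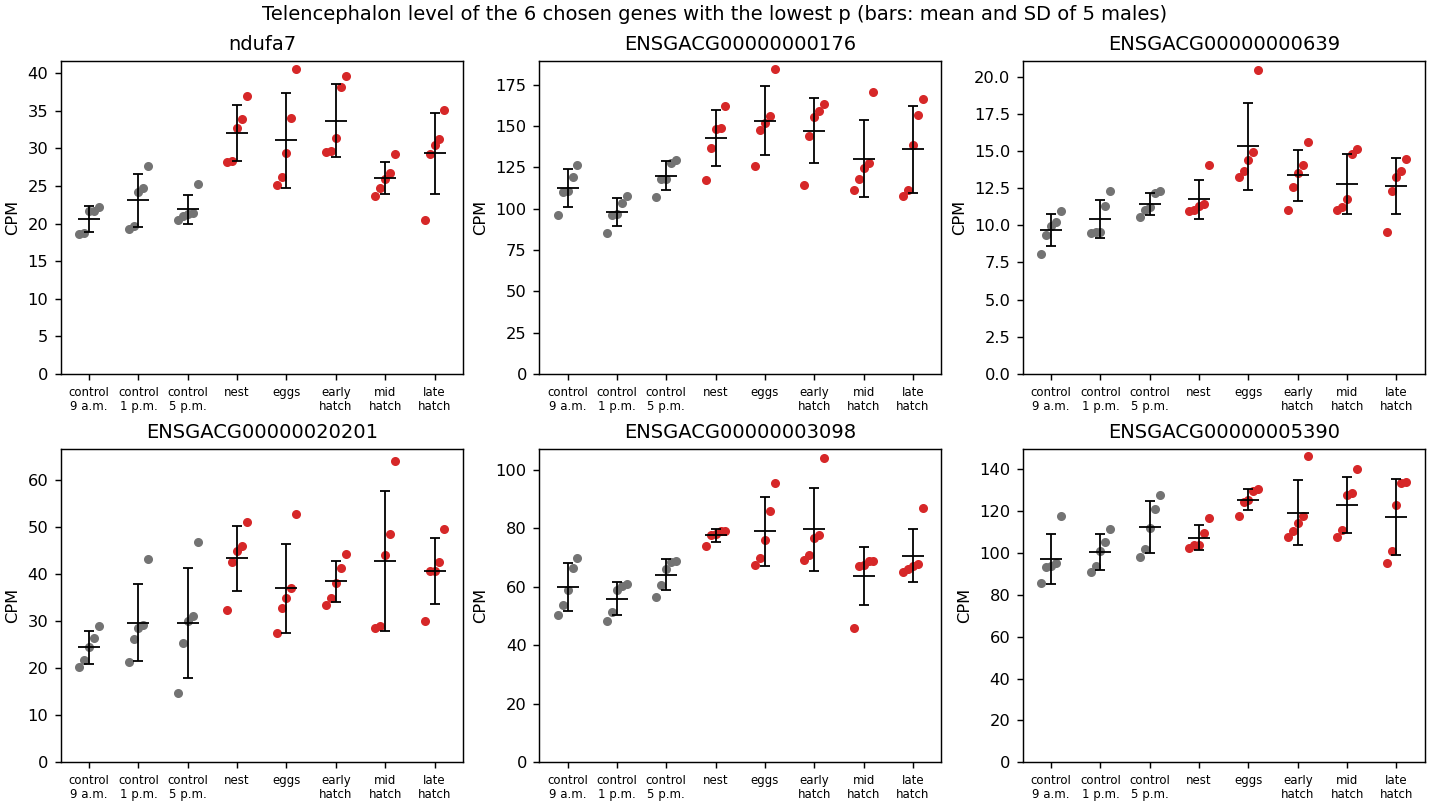
Telencephalon CPM (vertical axes, from 0) of the 6 members with the lowest p in 3 control groups (grey) and 5 caring groups (red). Points are males, and bars give the mean and SD of 5 males. ndufa7 at 9 a.m. does not overlap between control (18.6 to 22.2 CPM) and caring males (25.2 to 40.5 CPM). The share of all genes without overlap at that hour was not counted. Only 1 of the 5 controls of that hour held neither over 1000 CPM of pituitary nor over 100 CPM of photoreceptor genes. The same held for 4 of 5 egg males and all nest and early hatching males. The late hatching male at 20.4 CPM is male 65.

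The 5 calls were lost in both fits that took pituitary and photoreceptor RNA into account. With scores of pituitary and photoreceptor genes as covariates none of the 99 was called (ndufa7 0.48, adjusted p = 0.0573), although 95 had an estimate above 0 and the median of the 99 was 0.24. Without 7 telencephalon libraries of over 1000 CPM of pituitary or 100 CPM of photoreceptor genes, 6 of them controls, 1 member was called, ENSGACG00000005629, and ndufa7 stood at 0.50 with an adjusted p of 0.41. The estimates in these fits were 0.34 and 0.39 for ENSGACG00000000176, 0.38 and 0.37 for ENSGACG00000000639, 0.56 and 0.59 for ENSGACG00000020201 and 0.26 and 0.19 for ENSGACG00000003098. The SE was larger for each of the 5, for ndufa7 0.09 and 0.14 in place of 0.08. The share of all genes called in either fit was not counted, so the lost calls cannot be set apart from those of genes in general. With the 7 libraries left out, 1 control remained at 9 a.m., male 69, whose spread is taken from the other groups. In ENSGACG00000005629 male 69 was the lowest library of all. Leaving out male 39 left 1 call, leaving out any of 11 others left 3, and leaving out male 64 gave 8. The share of all genes called was not counted in these fits either. ndufa7 kept its call whichever male was left out, with adjusted p from 6.76e-05 to 0.00222. Its place in the choice of genes was kept in 31 of 39 diencephalon rankings that each left out a male.

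Stage by stage no member was called at an adjusted p under 0.01 in telencephalon by edgeR's quasi-likelihood test. Of all genes tested 0.0109% were called higher at the nest stage, and none at the other 4. DESeq2 and edgeR's likelihood ratio test each called 2 members higher at 1 or more stages, beside 0.337% and 0.087% of all genes, and the quasi-likelihood test at an adjusted p under 0.05 also called 2, beside 0.179%. At an unadjusted p under 0.05 the members higher were 13 at the nest stage, 24 with eggs, 27 at early hatching, 13 at mid hatching and 19 at late hatching, beside 6.62%, 5.76%, 5.56%, 2.43% and 6.85% of all genes in that order. Members above 0 numbered 73, 82, 89, 86 and 89, with medians of 0.15, 0.27, 0.26, 0.20 and 0.24 on the log2 scale. Over all genes 45.6%, 46.1%, 47.4%, 47.2% and 56.6% lay above 0, with medians of -0.02, -0.02, -0.01, -0.01 and 0.04. The median was lowest at the nest stage, and whether the stages differed was not tested.

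The median over the 99 genes was also taken for each male, as a description with no test. In telencephalon the median difference from the controls of the same hour was above 0 in all 25 caring males, from 0.07 to 0.51, with between 56 and 88 of the 99 genes above 0. Control males, each set against the other controls of its hour, ran from -0.17 to 0.17, and 16 of the 25 caring males lay above every one of them. In diencephalon, where the genes were chosen, caring males ran from 0.18 to 0.71 and control males from -0.16 to 0.18. Over all genes of at least 5 CPM the same medians stayed between -0.08 and 0.05 in every library. The 99 genes were chosen in these same males, whose deviations are correlated between the regions. The telencephalon medians are therefore not a separate replication, and the medians over all genes are not their level without a change.

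**Figure D3:**
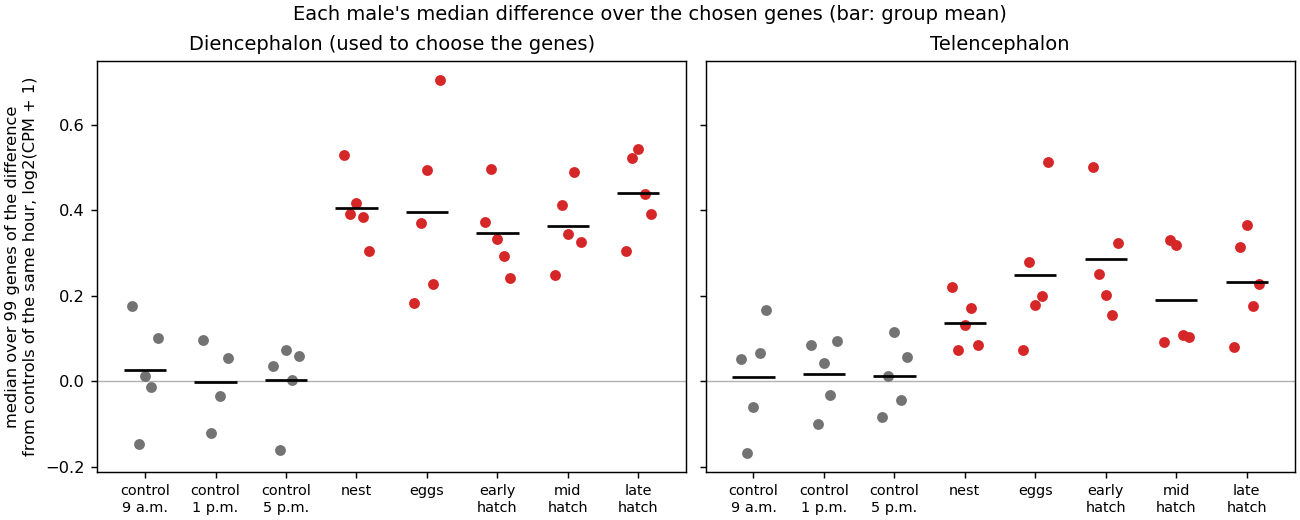
Median over the 99 genes of each male's difference from the control males of the same hour (vertical axis, log2(CPM + 1)) by group, with the group mean as a bar. Telencephalon values run from 0.07 to 0.51 in caring males (red) and from -0.17 to 0.17 in control males (grey). The diencephalon separation follows from how the genes were chosen, and the telencephalon values come from the same males.

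Of the genes with symbols, klhdc8a and ndufa7 were described above. TAPBP (2 of 7) had a telencephalon change of 0.42 (SE 0.25, adjusted p = 0.379, edgeR quasi-likelihood), with 3.40 to 12.9 CPM in caring males and 0.44 to 11.9 CPM in controls. CCRN4L (1 of 2) had 0.14 (SE 0.07, adjusted p = 0.327), si:busm1-57f23.1 0.11 (SE 0.08, adjusted p = 0.487) and aebp1 0.11 (SE 0.23, adjusted p = 0.863). None of these 4 passed the test. Among the first 10 genes by rank only ENSGACG00000020201 passed it. ENSGACG00000005338 had a telencephalon change of 0.11 (SE 0.43), ENSGACG00000010100 0.15 (SE 0.18), ENSGACG00000002971 0.15 (SE 0.24), ENSGACG00000016982 0.64 (SE 0.28), ENSGACG00000004949 0.50 (SE 0.17), ENSGACG00000001794 0.42 (SE 0.23), ENSGACG00000007024 0.32 (SE 0.33) and ENSGACG00000020419 0.77 (SE 0.34). For ENSGACG00000005338 the edgeR estimates were -0.26, -0.08, -0.08, 0.81 and 0.16 from the nest stage to late hatching. Its differences of mean log2(CPM + 1), the measure of the plot of all members, were 0.49, 0.63, 0.79, 1.49 and 0.78 (mean 0.84). In ENSGACG00000020419 that mean was the smaller value, at 0.51. The edgeR estimates are fitted to counts, while the other measure averages the logs of single males. In telencephalon 3 control males and no caring male were under 2 CPM of ENSGACG00000005338. The part of such males in the difference between the measures was not tested in either gene.

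A few genes had an estimate in the other direction in telencephalon. ENSGACG00000019013, at 22.4 CPM in diencephalon and 1.13 CPM in telencephalon, had -1.01 (SE 0.31, adjusted p = 0.0632), and ENSGACG00000008331 had -0.75 (SE 0.30, adjusted p = 0.159). Both were near 1 CPM in most telencephalon libraries, with the highest at 7.34 and 6.33 CPM in control males. Without the 7 libraries rich in pituitary or photoreceptor RNA the estimates were 0.44 and 0.20. That fit kept 1 control at 9 a.m., and the cause of the turn in sign was not tested. ENSGACG00000006774 had -0.04 (SE 0.11, adjusted p = 0.901).

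Time of day was compared among the control males alone. Between 5 p.m. and 9 a.m. no member changed in telencephalon at an adjusted p under 0.01 by edgeR's quasi-likelihood test, DESeq2 or the likelihood ratio test, where 0 and 0.00544% of all genes were higher and lower by the first, and 0.114% and 0.0544% changed in either direction by the other two. At an unadjusted p under 0.05 there were 2 higher and 2 lower members, beside 3.42% and 7.45% of all genes. The 2 lower members were ENSGACG00000019013 and ENSGACG00000008331, both near 1 CPM in most telencephalon libraries. Summed CPM of the pituitary hormone genes averaged 4881 in the 9 a.m. controls and 6.90 in the 5 p.m. controls. The part of this RNA in the comparison of hours was not tested. The members' median was -0.02 and 43 of 99 lay above 0, beside a median of -0.02 and 45.6% over all genes.

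Mean levels in the regions were compared as CPM + 1. On that scale the telencephalon mean was within 1 log2 unit of the diencephalon mean in 87 of 99 members (87.9%). Of all genes of at least 5 CPM 92.2% were within it. Of the members 3 were over 2-fold higher in telencephalon and 9 over 2-fold higher in diencephalon, also as CPM + 1. The most telencephalic was ENSGACG00000020201, at 35.8 CPM there and 5.17 CPM in diencephalon, followed by ENSGACG00000005338 (44.6 and 20.6 CPM) and ENSGACG00000005882 (134.9 and 63.7 CPM). The most diencephalic were ENSGACG00000019013, ENSGACG00000010100 (85.8 CPM against 24.2) and ENSGACG00000008446 (87.4 CPM against 24.9).

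Many of the genes differed strongly between males of the same group, and in part of them the same males were high or low in both brain regions. For each gene, the deviations of 39 males from their group means were correlated between diencephalon and telencephalon. The median r was 0.57 over the 99 genes and 0.40 over 14216 genes, and r was over 0.7 in 29 of the 99 (29.3%) and in 12.4% of all. The median within-group SD in diencephalon was 0.27 on the log2 scale in the members and 0.19 in all genes. The rule ranks differences between group means of these same males, which can favor genes of larger spread. What the rule added to the r and SD of the members was not tested. The points share the male, and of the 39 males 15 had both libraries on multiple lanes, 16 had both on the same single lane and 8 had them on different lanes. In order of falling r, 9 genes exceeded 0.9: ENSGACG00000016042, ENSGACG00000005629, ENSGACG00000016982, ENSGACG00000013127, ENSGACG00000005338, ENSGACG00000006806, ENSGACG00000016857, ENSGACG00000019649 and ENSGACG00000006713. The lowest r, -0.02, was that of ENSGACG00000019731.

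ENSGACG00000016042 showed it most clearly, with r = 0.99. Its diencephalon levels lay in 3 separate ranges, with 14 males between 0.04 and 1.06 CPM, 18 between 5.09 and 12.7 CPM and 7 between 17.1 and 20.6 CPM. The telencephalon ranges were 0 to 1.60 CPM, 5.85 to 9.91 CPM and 14.5 to 21.4 CPM, and all 39 males fell in the same range in both regions. Among the 25 caring males 8 were in the lowest and 6 in the highest range, and among the 14 controls with a diencephalon library 6 were in the lowest and 1 in the highest. ENSGACG00000005629 had the same form: control male 69 held 0.12 CPM in diencephalon and 0.17 CPM in telencephalon, 17 males lay between 8.86 and 15.1 CPM in diencephalon and 21 between 19.2 and 29.6 CPM, and 38 of 39 males kept their range in telencephalon. In that gene 16 of 25 caring and 5 of 14 control males were in the highest diencephalon range.

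ENSGACG00000005338, the first gene by rank, also had single males far from the rest. Control males 41 and 95 held 1.41 and 0.53 CPM in diencephalon and 1.102 and 0.47 CPM in telencephalon, where the medians over all libraries were 19.5 and 44.3 CPM, and no caring male was under 2 CPM in either region. In telencephalon 3 control males were under 2 CPM. ENSGACG00000016857 was under 2 CPM in the diencephalon of 5 control and 4 caring males, with a median of 12.8 CPM and a highest level of 33.8 CPM. TAPBP (2 of 7) was near 0 in both regions of control male 7, at 0.33 and 0.44 CPM, and in no other male under 2 CPM. The 29 genes of r over 0.7 had a median telencephalon change of 0.32 with 29 above 0, and the other 70 had 0.19 with 65 above 0. At an unadjusted p under 0.05, 13 of the 29 and 31 of the 70 were higher. All genes were not split by r in the same way, so these counts have no share to stand beside. Of the 5 called genes none had r over 0.7, a value passed by only 29.3% of the members and 12.4% of all genes. ndufa7 had 0.53, ENSGACG00000000639 0.54, ENSGACG00000000176 0.49, ENSGACG00000020201 0.37 and ENSGACG00000003098 0.20, beside a median of 0.40 over 14216 genes. What the choice in the same males added to these calls was not tested.

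**Figure D4:**
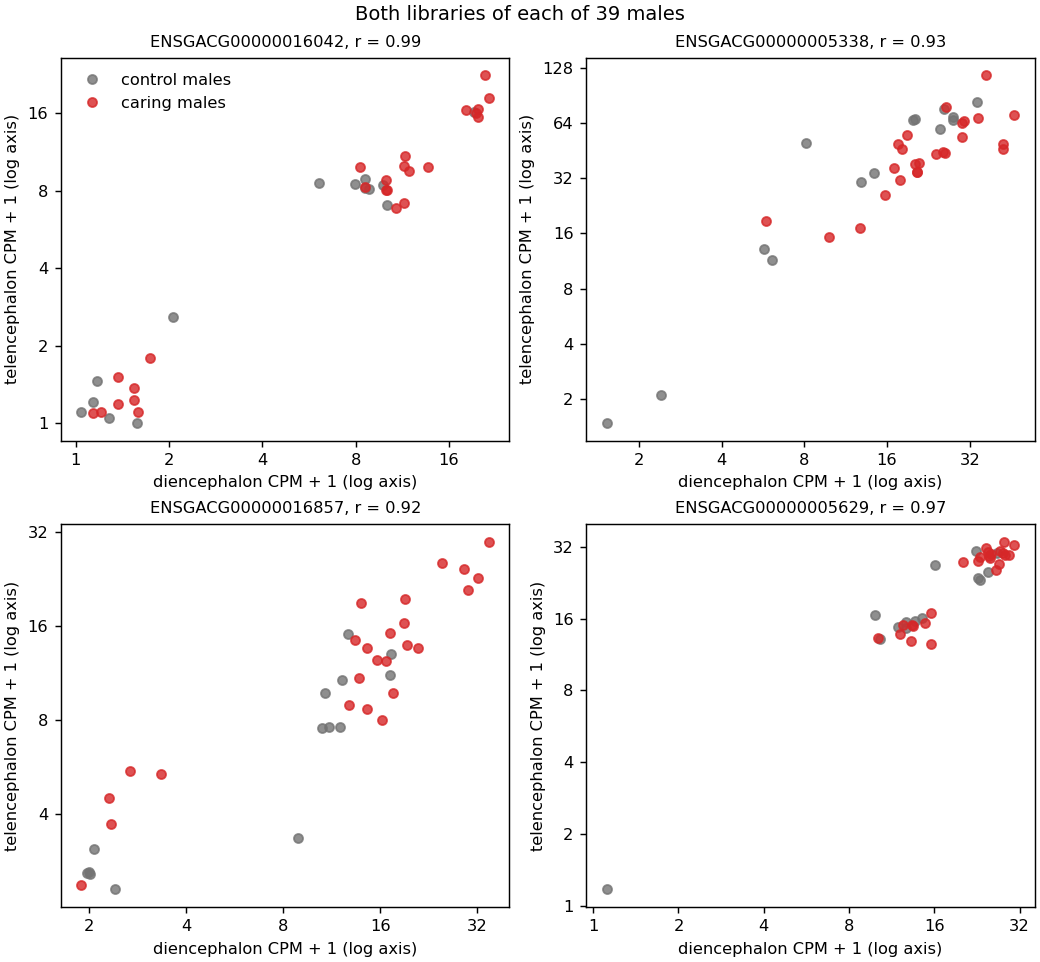
Diencephalon level (horizontal) against telencephalon level (vertical) of 4 genes in 39 males, both as CPM + 1 on log axes, with control males in grey and caring males in red. Each point is a male. The males fall in separate clusters along the diagonal in ENSGACG00000016042 and ENSGACG00000005629, and 2 control males lie apart at the low end in ENSGACG00000005338.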

How the data were processed

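RNA of dissected diencephalon and telencephalon was made into stranded poly(A) libraries and sequenced single-end. The authors demultiplexed with CASAVA 1.8.2, aligned with TopHat2 2.0.8 and Bowtie to the repeat masked genome of Ensembl, counted with HTSeq 0.6.1 and left out reads that fell in more than 1 gene; the deposited values are whole-number counts per gene, not normalized. Group means of 39.4% to 45.7% of the aligned reads lay outside genes, and rows that name no gene stayed out of library sizes and tests. Groups and male numbers came from the labels, lanes and index sequences from the library names. The members and lists were chosen with earlier results of these data known. CPM was taken on the sum of gene rows.

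edgeR 4.0.16 on R 4.3.3 fitted the 40 telencephalon libraries in 8 groups, by TMM and the quasi-likelihood test, over genes of at least 0.5 CPM in at least 5 libraries. Contrasts were the mean of the 5 stage changes, each stage against its hour's controls, and 5 p.m. against 9 a.m. controls, with Benjamini-Hochberg adjustment over all genes and a threshold of 0.01. The fit was tested on simulated data. The p-values of this fit rest on the spread among males within a group, pooled over the 8 groups. Alternatives were RLE normalization, no filter, DESeq2 1.42.0, the likelihood ratio test, a threshold of 0.05, covariates, 2 groups alone, leaving out each male, and for the choice of genes TMM-scaled CPM, a pseudocount of 0.25, a mean CPM of 1, and medians. Leaving out libraries rich in pituitary or photoreceptor RNA was chosen after seeing the data. Named genes were those called, the first 10 by rank, the 10 of lowest p, the 3 largest falls, those at the limit of 100, the members with a list entry and the extremes between regions; klhdc8a, TAPBP (2 of 7), CCRN4L (1 of 2), aebp1, si:busm1-57f23.1 and the genes that vary most between males were named after their values were seen. Marker lists of either brain region matched no identifier, so the tissue was not checked by them, and no gene or protein sequence was used here.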

Additional observations from a re-analysis of the deposited data

Results flagged for a closer look

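In 8 members and in each male's median, 144 groups of 4 or 5 libraries were searched for a library far from the others, and 17 were found, where chance gives about 1 in 20. In telencephalon these libraries were 25.2 CPM of ndufa7 in a 5 p.m. control, 170.6 CPM of ENSGACG00000000176 at mid hatching, 14.0 and 20.4 CPM of ENSGACG00000000639 in a nest and an egg male, and 115.8 CPM of ENSGACG00000005338 at mid hatching. ENSGACG00000003098 had 4 of them, at 74.0 CPM in a nest male, 104.2 CPM at early, 46.0 CPM at mid and 86.9 CPM at late hatching, and ENSGACG00000016857 had 28.9 CPM at early hatching. In diencephalon they were 19.5 and 16.9 CPM of ENSGACG00000000639 in an egg and a mid hatching male, 6.63 CPM of ENSGACG00000020201 in a 1 p.m. control, 56.7 CPM of ENSGACG00000003098 in a nest male, 28.9 CPM of ENSGACG00000005338 at early hatching, and 33.8 and 0.89 CPM of ENSGACG00000016857 at early and late hatching.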

How the results depend on the processing

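The count of 5 members called higher in telencephalon was also 5 with RLE normalization, without the filter and after adjustment for the percentage of reads outside genes. Group means of that percentage ran from 40.8% to 42.9% in telencephalon and from 39.4% to 45.7% in diencephalon. The choice of genes in diencephalon was not adjusted for it. DESeq2 and the likelihood ratio test each gave 12, beside 0.696% and 0.467% of all genes, the threshold of 0.05 gave 14, marker scores as covariates gave 0, and leaving out the 7 libraries rich in pituitary or photoreceptor RNA gave 1. Leaving out a male gave 1 to 8, with 1 without male 39 and 8 without male 64. The count was 3 without male 7, 12, 32, 33, 41, 54, 73, 74, 78, 95 or 97. The share of all genes called was counted only for the quasi-likelihood test at both thresholds, DESeq2 and the likelihood ratio test. ENSGACG00000003098 lost its call in 27 of the 40 fits without a male, ENSGACG00000020201 in 16, ENSGACG00000000639 without male 39 or 41 and ENSGACG00000000176 without male 39; the cause was not tested. Members called at 1 or more stages were 2 by DESeq2, by the likelihood ratio test and at 0.05, 1 without the 7 libraries, and 0 to 1 without a male, being 1 without male 60, 65 or 96. No setting called a member lower or changed with time of day. With marker scores the estimates of ENSGACG00000008331, ENSGACG00000006774 and ENSGACG00000005338 turned to 0.027, 0.12 and -0.056, and without the 7 libraries those of ENSGACG00000019013, ENSGACG00000008331, ENSGACG00000006774 and ENSGACG00000005338 were 0.44, 0.20, 0.23 and -0.26. The fit without the 7 libraries kept 1 control at 9 a.m. ENSGACG00000005338 was at -0.05 without male 39 and -0.082 without male 41 and ranged from -0.082 to 0.27 over the males, and ENSGACG00000006774 from -0.083 to 0.048. The choice of genes kept 93 of the 99 with TMM-scaled CPM, 95 with a pseudocount of 0.25, 80 with a mean CPM of 1, 46 with medians in place of means, and 69 to 94 without a male; 11 were kept whichever male was left out. No paired analysis was possible because each telencephalon comparison is between different males. The telencephalon libraries held at least 15839679 counts on genes, and the part of depth in the estimates of genes near 1 CPM was not tested.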

Other observations

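Members also varied together among males of a group. Over 4851 pairs of members, deviations from group means had a median correlation of 0.13 in 39 diencephalon and 0.11 in 40 telencephalon libraries. Over all pairs of genes of at least 5 CPM the medians were 0.01 and 0.00. Of the member pairs 8 were over 0.7 in both regions, and the share of all pairs that were was not counted. The highest was ENSGACG00000001794 with ENSGACG00000018591, at 0.83 and 0.89. ENSGACG00000009520 was in 3 of the 8, with ENSGACG00000004814 (0.76 and 0.81), ENSGACG00000004204 (0.70 and 0.72) and ENSGACG00000003098 (0.79 and 0.70). The points share libraries, depth and lanes. The members were also chosen for differences in the same direction in these males. What that choice added to the correlations was not tested, so the medians over all pairs are not a level without it.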
